A study of Mus musculus with 9 samples.

Results

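A set of 10 genes that marks cartilage, bone and the lubricated joint surface was followed in mouse embryo fibroblasts (MEFs): Sox9, Runx2, Sp7, Acan, Comp, Prg4, Alpl, Spp1, Bglap and Chad. They were chosen by name for their roles in the skeleton, with earlier results of these data known, though the rule itself uses no measured value. All probe-sets that carry one of these symbols alone were taken. Of the 10 genes, 7 had such a probe-set in the annotation used, in which 18194 genes had a probe-set of their own. Together the 7 had 9 probe-sets. Sox9 had 3 of them, and the other 6 measured genes had 1 each. Runx2, Spp1 and Bglap had none among the named probe-sets and are not analysed here. The mouse arrays compared Tgif1 null (Tgif1 -/-) MEFs at passage 3 with wild type MEFs at passage 5 and at passage 3, and 3 cultures were hybridised per group. All 9 cultures were primary, untreated MEFs of the strain C57BL/6J x 129Sv/J, taken from embryos of 13.5 days and grown on a 3T3 schedule in medium with 10% serum. The labels do not give the number of embryos or isolations behind the 3 cultures of a group. The spread of a group is that between its cultures, and the part of embryo or isolation in a difference was not tested. The comparisons ask what differs between null and wild type cultures at passage 3, and what changes between passages 3 and 5 in wild type cells. They also ask where the null P3 and the wild type P5 cultures differ. No null culture at passage 5 was measured, so passage and genotype can be set against each other only through the wild type P3 arrays. Every pair of comparisons shares 1 group of arrays.

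Tgif1 is a homeodomain protein that acts as a transcriptional corepressor and limits the response of Smad proteins to TGFβ. Chondrocytes are specified by Sox9 and fill their matrix with type II collagen and with the proteoglycan aggrecan, which Acan encodes. Osteoblasts are specified by Runx2 and then Sp7, also called osterix, and they use the phosphatase encoded by Alpl to allow mineral to form. Embryo fibroblasts are a mixed mesenchymal culture, in which neither programme is normally complete.

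Expression is given as the log2 signal of a probe-set, so that a difference of 1 is a doubling, and the lowest value on every array was 2.23. Between 18127 and 18258 probe-sets of an array were above 4, and arrays of the same group correlated at 0.996 to 0.999. The Tgif1 probe-set read 2.48, 3.21 and 2.50 in the null P3 cultures, against 10.06, 10.07 and 10.18 in wild type P5 and 9.82, 9.95 and 9.72 in wild type P3, as the labels state. The 12 fibroblast markers examined were all above 4 on average. Null P3 replicate 1 stood apart, and was the highest array by more than 0.5 for 167 of the 18194 genes, against 12 to 35 genes on each other array. None of the 7 measured genes was among those 167. A summed signal from a mixed culture cannot tell fewer cells of a type from less RNA per cell.

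Across the 3 comparisons Prg4, Acan and Comp passed the test at least once, while Sox9, Sp7, Alpl and Chad did not. Prg4 was higher in null P3 than in both wild type groups, Comp was higher in wild type P5 than in both P3 groups, and Acan was lower in wild type P5 than in wild type P3. A gene, represented by its brightest probe-set, was counted as changed where limma's moderated test gave p under 0.05 after adjustment over all 45101 probe-sets. In null P3 over wild type P3, 1 of the 7 genes was higher and 0 lower, and of all probe-sets 0.898% were higher and 0.692% lower (1.59% in either direction, or 2.58% of all genes). In wild type P5 over wild type P3, 1 was higher and 1 lower, beside 4.29% of probe-sets higher and 4.33% lower (8.62% in either direction, or 13.2% of genes). In null P3 over wild type P5, 1 was higher and 1 lower, beside 3.58% of probe-sets higher and 3.65% lower (7.22% in either direction, or 11.4% of genes). With 7 genes, counts of 1 and 2 do not set the group apart from these shares.

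**Figure D1:**
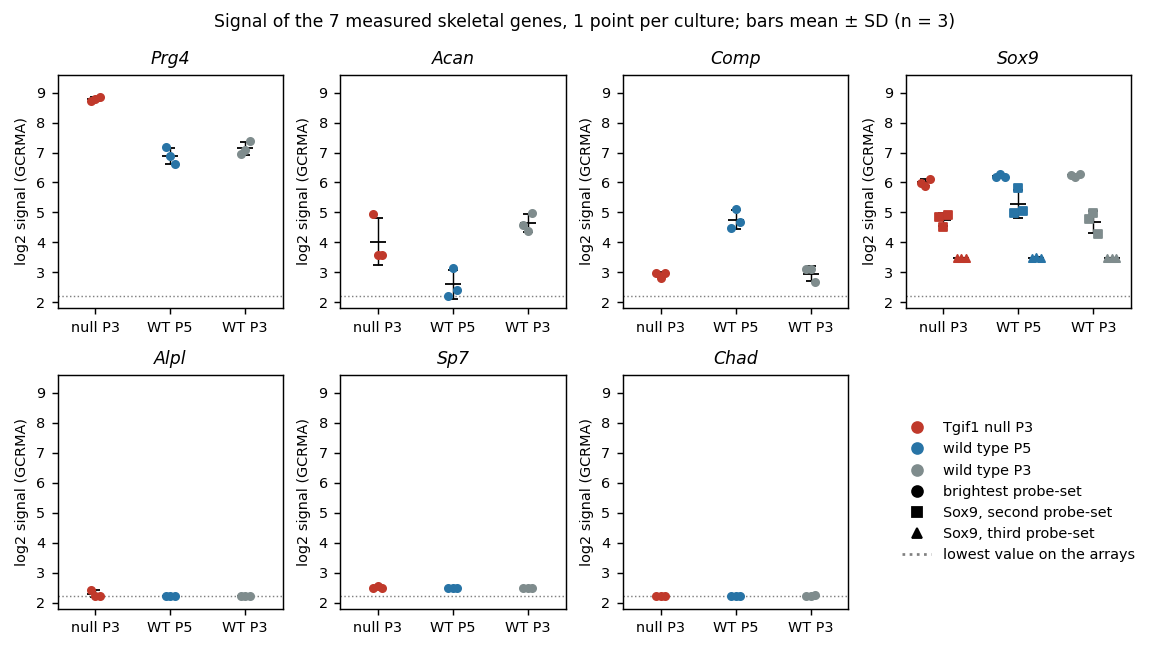
Log2 signal of the 7 measured genes in each culture, with null P3 (red), wild type P5 (blue) and wild type P3 (grey) along each x axis, a point per culture, and bars for the mean and SD of 3 cultures. The null P3 points of Prg4 lie between 8.72 and 8.86, above all 6 wild type points, and the points of Alpl, Sp7 and Chad lie at or just above the dotted line, which marks the lowest value of 2.23.

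Prg4 encodes lubricin, the mucin-like proteoglycan that coats joint surfaces and is made by cells of the synovium and of the superficial zone of cartilage. Its probe-set, 1449824_at, read 8.72, 8.79 and 8.86 in null P3, against 7.17, 6.88 and 6.63 in wild type P5 and 6.96, 7.07 and 7.38 in wild type P3. The 3 null cultures were the 3 highest of the 9, with the smallest spread of the 3 groups. The mean was 8.79 ± 0.07 in null P3, against 6.89 ± 0.27 in wild type P5 and 7.14 ± 0.22 in wild type P3 (SD, n = 3 each). Prg4 was therefore 3.15-fold higher in null P3 than in wild type P3, a log2 difference of 1.66 (SE 0.16, 95% interval 1.26 to 2.05, limma adjusted p = 0.0113). It was 3.73-fold higher in null P3 than in wild type P5, a difference of 1.90 (SE 0.16, interval 1.51 to 2.29, limma adjusted p = 0.002). Between wild type P5 and wild type P3 the difference was -0.25, with an interval of -0.64 to 0.15 and a limma adjusted p of 0.615, and the values of the 2 groups overlapped. The order was thus null P3, then wild type P3 and wild type P5, and the last 2 did not differ beyond their spread. With limma's prior variance allowed to vary with the signal and made robust, the call over wild type P3 was lost at a limma adjusted p of 0.0508, while the call over wild type P5 was kept, and the first call was lost in 2 of 16 alternatives in all.

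Markers of other cells also moved with the null cultures. The summed linear signal of 12 macrophage genes was 832 to 1227 in null P3, against 389 to 442 in wild type P5 and 518 to 561 in wild type P3. Over wild type P3, 1 of the 12 rose, the lysosomal protease gene Ctss, by 1.89 (limma adjusted p = 0.00977), beside 2.58% of all genes called in either direction. Of the 12, 8 had an unadjusted p under 0.05. Those 8 were higher in null P3, among them Csf1r, the receptor for the macrophage growth factor, with a difference of 1.75 at a limma adjusted p of 0.0808. The share of all genes with an unadjusted p under 0.05 is not given, here or for the lists below. Over wild type P5, 6 of the 12 rose, beside 11.4% of all genes called in either direction. The smallest p was for Ctss (4.01-fold, limma adjusted p = 0.00208) and then for the lysozyme gene Lyz2 (1.14, limma adjusted p = 0.00687). Of the 4 genes that were not among those 8, the integrin gene Itgam stayed at 2.23 on all 9 arrays, and Ptprc did not exceed 2.36. The 2 others were Adgre1 and Cd68. Adgre1 averaged 2.93 in null P3, against 2.89 in wild type P5 and 2.98 in wild type P3. Cd68 read 4.12 on every array but null P3 replicate 1, where it read 4.57. The macrophage sum was highest in null P3 replicate 1, at 1227. The sum of 10 skeletal muscle genes was 3145 to 4138 in null P3, against 4334 to 5261 in wild type P5 and 1833 to 2017 in wild type P3. Of these 10, 5 rose in null P3 over wild type P3, beside 2.58% of all genes called in either direction. Among the 5 were Tnnc2 (3.14, limma adjusted p = 0.00424), Myh3 (2.35, limma adjusted p = 0.00575) and the myogenic factor Myog (2.18, limma adjusted p = 0.0103). The other listed myogenic factors, Myod1, Myf5 and Myf6, were at 2.23 on all arrays. The part of these cells in the Prg4 signal was not tested.

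Comp encodes cartilage oligomeric matrix protein, a member of the thrombospondin family that binds collagens in cartilage, tendon and ligament. Its probe-set, 1419527_at, read 4.48, 5.12 and 4.68 in wild type P5, against 3.10, 3.10 and 2.67 in wild type P3, while the null P3 cultures read 2.97, 2.83 and 2.97. All 3 wild type P5 values lay above all 6 values of passage 3, and the null P3 values lay within the range of wild type P3. Comp averaged 4.76 ± 0.33 in wild type P5 and 2.96 ± 0.25 in wild type P3, with 2.92 ± 0.08 in null P3 (SD, n = 3 each). It was 3.49-fold higher in wild type P5 than in wild type P3, a log2 difference of 1.80 (SE 0.19, interval 1.34 to 2.27, limma adjusted p = 0.00362). It was 3.58-fold lower in null P3 than in wild type P5, a difference of -1.84 (SE 0.19, interval -2.30 to -1.38, limma adjusted p = 0.00367). Between null P3 and wild type P3 the difference was -0.04, with an interval of -0.50 to 0.43 and a limma adjusted p of 1. Both calls of Comp held in all 16 alternatives tried, and the passage 3 values lie less than 1 above the lowest value of the arrays, which compresses a difference measured from them.

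The same wild type P5 arrays had the highest fibroblast marker sum, at 155287 to 163742 for 12 genes, against 128799 to 130790 in wild type P3. Of the 12, 4 rose, beside 13.2% of all genes called in either direction. The smallest p was for Fn1 (0.36, limma adjusted p = 0.00645) and then for S100a4 (0.41, limma adjusted p = 0.0106). The null P3 sum was 123947 to 138911. Of 12 fibroblast genes, 1 fell in null P3 over wild type P3, beside 2.58% of all genes called in either direction. It was the proteoglycan gene Dcn, which fell by 0.73 (limma adjusted p = 0.0317). In null P3 over wild type P5, 6 of the 12 fell and 0 rose, beside 11.4% of all genes called in either direction. The skeletal muscle sum was also highest in wild type P5, where the actin gene Acta1, at 12.03, 12.18 and 12.32, made up most of it and rose by 1.60 over wild type P3 (limma adjusted p = 0.000389). The mean log2 signal of the same 10 genes was instead lowest there, at 3.96 to 4.01 in wild type P5, against 4.61 to 4.64 in wild type P3 and 5.64 to 6.00 in null P3, and Actc1 fell by 3.93 in wild type P5 over wild type P3 (limma adjusted p = 0.000569). Whether a shift in the cells of the culture entered the Comp signal was not tested.

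Acan encodes aggrecan, the large proteoglycan that holds water in cartilage and lets it bear load. Its probe-set, 1449827_at, read 2.23, 3.16 and 2.43 in wild type P5, against 4.60, 4.39 and 4.99 in wild type P3, and 4.94, 3.57 and 3.57 in null P3. One wild type P5 culture was at the lowest value of the arrays, and no wild type P5 value reached any value of the 2 other groups. Acan averaged 2.61 ± 0.49 in wild type P5 and 4.66 ± 0.31 in wild type P3, with 4.03 ± 0.79 in null P3 (SD, n = 3 each). It was 4.14-fold lower in wild type P5 than in wild type P3, a log2 difference of -2.05 (SE 0.45, interval -3.13 to -0.97, limma adjusted p = 0.0420). This call was the least stable of the 5, since it was lost when any array other than null P3 replicate 1 was left out, at limma adjusted p of 0.0607 to 0.141, and under the other prior, at 0.0726, in all in 10 of 16 alternatives. The difference itself stayed between -2.33 and -1.86 in all 16 alternatives.

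The null P3 cultures were split for Acan, with replicate 1 at 4.94, among the wild type P3 values, and the 2 others at 3.57, between the wild type groups. Null P3 over wild type P3 gave -0.63, with an interval of -1.71 to 0.45 and a limma adjusted p of 0.768. Null P3 over wild type P5 gave 1.42, with an interval of 0.34 to 2.50, and did not pass at a limma adjusted p of 0.145. With only probe-sets above 4 on at least 3 arrays tested, that last difference passed at a limma adjusted p of 0.0283. The order was wild type P3, null P3 and wild type P5, and neither pair of neighbours was called apart by limma over all probe-sets. The sum of 8 mesothelial markers was likewise lowest in wild type P5, at 985 to 1135, against 1595 to 1733 in wild type P3 and 1360 to 1660 in null P3. In wild type P5 over wild type P3, 1 of the 8 passed, the keratin gene Krt18, which fell by 2.66 (limma adjusted p = 0.000411). The means of Krt19 and Krt8 were also lower, at 9.55 against 9.89 and 2.76 against 3.57. Msln went the other way, at a mean of 7.82 in wild type P5, against 7.62 in wild type P3 and 6.97 in null P3. Upk3b, Upk1b, Wt1 and Lrrn4 did not exceed 2.81 on any array. The sum of 8 endothelial markers was 58.2 to 71.8 in wild type P5, against 82.3 to 89.8 in wild type P3 and 90.6 to 125 in null P3. In wild type P5 over wild type P3, 0 of the 8 passed. Of the 8, 2 averaged above 4, Emcn and Kdr, and the others, among them Pecam1, were at 2.49 or less on all arrays. Their part in the Acan values was not tested.

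The 250 bases upstream of a gene start were taken from a RefSeq table of the build GRCm38.p6, in which 3 of the 7 measured genes were matched, and those of Acan and Chad are printed because they set a cartilage matrix gene that changed with passage beside a cartilage matrix gene that stayed at the lowest signal. The windows lie at chr7:79052976-79053225 and chr11:94564797-94565046, both on the plus strand, and capitals mark the GC box GGGCGG in either orientation, which Sp1 family factors can bind.
Acan: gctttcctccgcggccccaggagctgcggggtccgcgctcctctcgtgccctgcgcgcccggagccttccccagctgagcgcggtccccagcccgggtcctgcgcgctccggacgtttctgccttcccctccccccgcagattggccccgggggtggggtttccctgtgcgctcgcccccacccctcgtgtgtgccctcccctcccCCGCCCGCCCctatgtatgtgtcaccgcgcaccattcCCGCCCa
Chad: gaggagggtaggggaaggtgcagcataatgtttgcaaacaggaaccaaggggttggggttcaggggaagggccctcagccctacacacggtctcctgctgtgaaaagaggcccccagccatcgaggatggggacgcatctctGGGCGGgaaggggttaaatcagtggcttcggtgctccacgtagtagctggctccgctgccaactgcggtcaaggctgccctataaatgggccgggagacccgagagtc
The Acan window was 74.4% G and C and held 3 GC boxes, all on the minus strand, with the first at bases 207 to 212 overlapping the second at 211 to 216 and the third at 244 to 249. The Chad window was 60.4% G and C and held 1 GC box, at bases 143 to 148. Over 32851 such windows the median was 52.4% G and C, and 32.7% held a GC box. The letters ACAAT, from the core that Sox proteins bind, were in neither window on either strand, and were in 27.7% of all windows. The letters CTGTCA, which contain the core that Tgif proteins bind, were also in neither window, and were in 15.9% of all windows. These are matches of letters and say nothing of binding.

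Chad encodes chondroadherin, a leucine-rich repeat protein that holds chondrocytes to collagen. Its probe-set, 1420569_at, read 2.23 on 8 arrays and 2.25 on wild type P3 replicate 3. No decrease could be seen from such a level, and no comparison passed, with the interval of every difference within -0.02 and 0.01. Its upstream window, printed above, stands beside a signal at the bottom of the scale in these cells.

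**Figure D2:**
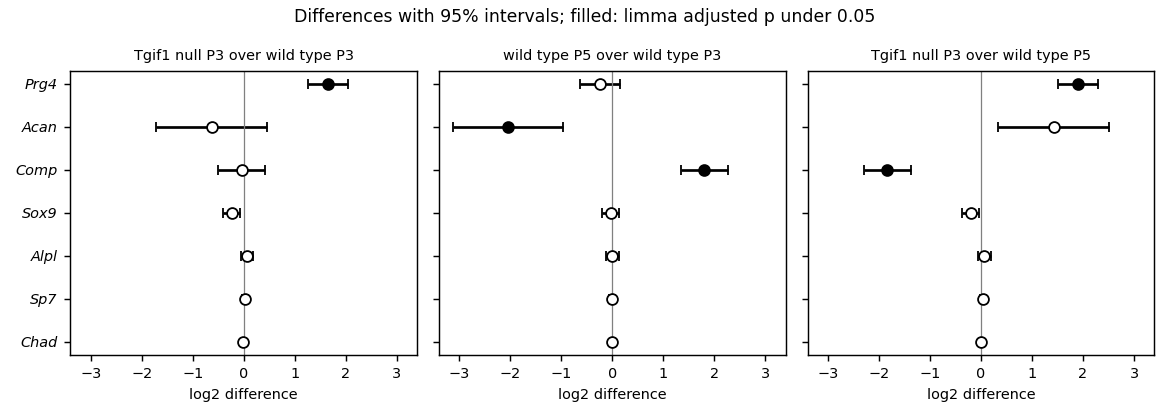
Log2 difference of each measured gene in the 3 comparisons (x axis, log2 units), with limma's 95% intervals, and filled points for an adjusted p under 0.05. Prg4 is filled at 1.66 and 1.90 in null P3 over wild type P3 and over wild type P5. Comp at 1.80 and Acan at -2.05 are filled in wild type P5 over wild type P3, and Comp at -1.84 in null P3 over wild type P5.

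Sox9, the factor that chondrocytes need, was measured by 3 probe-sets. The brightest, 1451538_at, read 5.98, 5.89 and 6.13 in null P3, against 6.17, 6.27 and 6.17 in wild type P5 and 6.26, 6.17 and 6.28 in wild type P3. The null values lay below all wild type values, by a small margin. Null P3 over wild type P3 gave -0.23 (interval -0.40 to -0.07) and null P3 over wild type P5 gave -0.20 (interval -0.37 to -0.04), and neither passed, at limma adjusted p of 0.232 and 0.168. Wild type P5 over wild type P3 gave -0.03, with an interval of -0.19 to 0.13, which excludes a change of the size seen for Comp or Acan on this probe-set. The second probe-set, 1424950_at, read 4.84, 4.52 and 4.91 in null P3, against 4.98, 5.81 and 5.06 in wild type P5 and 4.77, 4.98 and 4.29 in wild type P3. It gave 0.60 in wild type P5 over wild type P3, with an interval of -0.08 to 1.28 and a limma adjusted p of 0.340, where wild type P5 replicate 2 was the highest array. The third, 1433889_at, stayed between 3.48 and 3.52 on all arrays. In null P3 over wild type P5 the second probe-set gave -0.52 (interval -1.21 to 0.16, limma adjusted p = 0.463) and the third -0.01, so all 3 were lower in null P3 there, without overlap and without passing. In the other 2 comparisons the 3 did not share a direction, and in wild type P5 over wild type P3 the sign of the gene turned when they were averaged.

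The 2 bone markers of the set that could be measured, Alpl and Sp7, were at or near the bottom of the scale in all 3 groups. In the wider lists described below, 7 of 14 bone matrix and mineral genes and 10 of 13 bone regulators averaged above 4. Alpl, the tissue-nonspecific alkaline phosphatase that removes the mineralisation inhibitor pyrophosphate, was read by 1423611_at at 2.23 on 8 arrays and at 2.43 on null P3 replicate 1. Sp7, the osteoblast factor downstream of Runx2, was read by 1418425_at at 2.48 on 8 arrays and at 2.57 on null P3 replicate 2. Neither passed in any comparison. The 9 values of Alpl, Sp7 and Chad each spanned less than 0.2, so 3 of the 7 genes (42.9%) did so by their brightest probe-set, against 38.4% of all genes. Of the 7 genes, 2 had a mean above 4 (28.6%), Prg4 and Sox9, against 54.6% of all genes. A probe-set at this level shows that its signal was not seen to vary, and gives no measure of how far below the scale the transcript lies.

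A wider list of 66 skeletal genes, named for their roles and also with earlier results of these data known, had 62 genes with a probe-set of their own. In null P3 over wild type P3, 0 of the 62 passed limma's test in either direction, beside 2.58% of all genes. Of the 62, 12 had an unadjusted p under 0.05, with no share of all genes given for that count. Other settings called between 0 and 6 of the 62. The 2 that came nearest were cartilage collagens. Col10a1, the collagen of hypertrophic cartilage, read 6.65, 5.82 and 5.67 in null P3 against 4.72, 4.24 and 4.27 in wild type P3, a difference of 1.63 at a limma adjusted p of 0.0537. Col2a1, the main fibrillar collagen of cartilage, read 11.98, 11.55 and 11.44 in null P3 against 10.65, 10.33 and 10.73 in wild type P3, a difference of 1.08 at a limma adjusted p of 0.0808. The groups did not overlap for either gene. The median difference of the 62 genes was 0, as was that of all 18194 genes.

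In wild type P5 over wild type P3, 8 of the 62 rose and 4 fell, beside 13.2% of all genes called in either direction, and the median difference was again 0 for the list and for all genes. Leaving out 1 array took the count of 12 to between 4 and 15. Among 18 cartilage matrix genes 3 rose and 1 fell, Col2a1, at -1.12. Among 7 cartilage regulators 0 rose and 1 fell, Gdf5, at -1.39. Among 14 genes of bone matrix and mineral 3 rose and 0 fell. None of 13 bone regulators passed, with 5 at an unadjusted p under 0.05, and among 10 genes of joint, tendon and the osteopontin receptors 2 rose and 2 fell. Mgp, the matrix Gla protein that inhibits calcification, read 14.64, 14.66 and 14.75 in wild type P5 against 14.07, 13.83 and 14.11 in wild type P3, and rose by 0.68 (limma adjusted p = 0.00438). Omd, which encodes the bone proteoglycan osteomodulin, read 6.79, 6.58 and 6.53 in wild type P5 against 5.10, 5.76 and 5.10 in wild type P3, and rose by 1.31 (limma adjusted p = 0.0113). Both were clear of the wild type P3 range in all 3 cultures.

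Col10a1 had the greatest rise of the 12, at 1.69 (limma adjusted p = 0.0161), with 6.11, 6.23 and 5.95 in wild type P5. The tendon homeobox gene Mkx rose by 0.69 (limma adjusted p = 0.008) and Ank, whose product carries pyrophosphate out of the cell, rose by 0.55 (limma adjusted p = 0.0086). Creb5, a factor of the CREB family, fell by 0.53 (limma adjusted p = 0.0123). These genes therefore moved in both directions while Acan fell and Comp rose.

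In null P3 over wild type P5, 4 of the 62 rose and 5 fell, beside 11.4% of all genes called in either direction, with a median of 0 for the list and for all genes. Leaving out 1 array took the count of 9 to between 3 and 7. Col2a1 read 9.22, 9.33 and 9.80 in wild type P5, below the null P3 values given above, and was 4.61-fold higher in null P3 (2.20, limma adjusted p = 0.003). Slc20a1, a sodium-dependent phosphate transporter, was higher in null P3 by 0.69 (limma adjusted p = 0.0137), and Itgb3, the integrin chain that binds osteopontin together with alpha v, by 1.41 (limma adjusted p = 0.0315). Creb5 was higher by 0.39 (limma adjusted p = 0.0390). Mgp fell by 0.73 (limma adjusted p = 0.00373) and Omd fell by 1.61 (limma adjusted p = 0.00621) in null P3 relative to wild type P5. Since this comparison shares the wild type P5 arrays with the passage comparison, its calls do not stand as separate evidence.

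**Figure D3:**
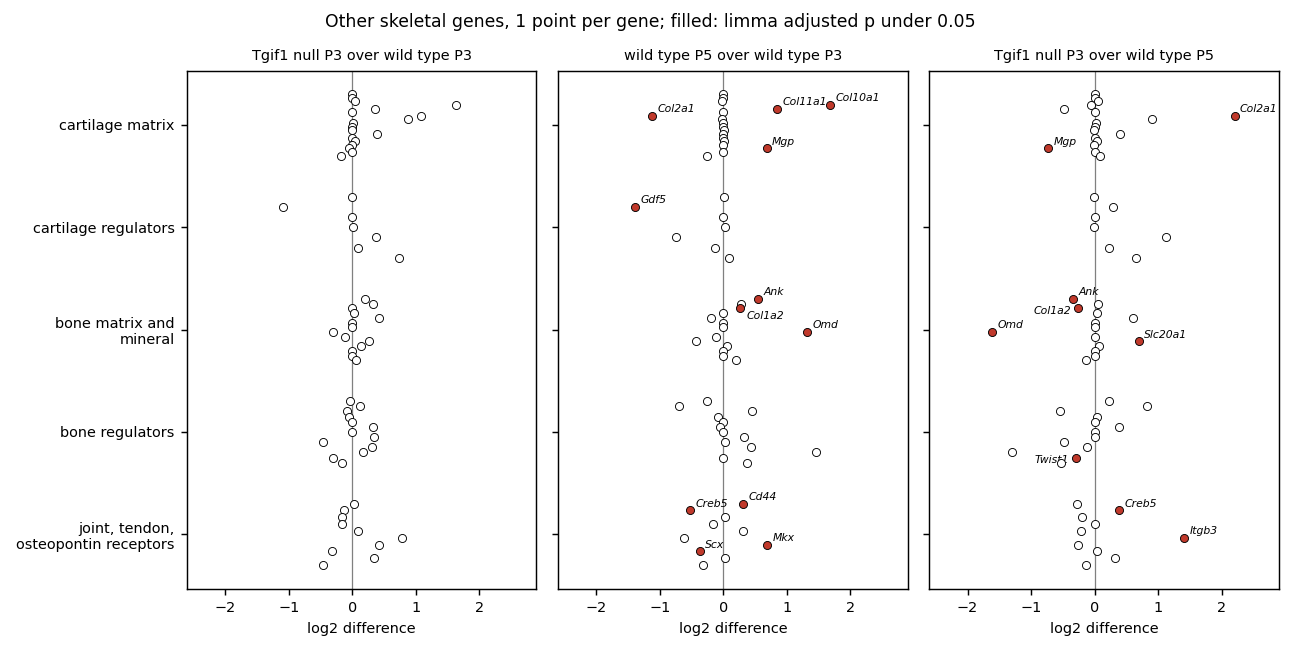
Log2 differences (x axis, log2 units) of 62 other skeletal genes in 5 groups (rows), a point per gene, red where limma's adjusted p was under 0.05. No point is red in null P3 over wild type P3, 8 are red to the right and 4 to the left in wild type P5 over wild type P3, and 4 and 5 in null P3 over wild type P5.

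Osteoclasts, the bone-resorbing cells that macrophage precursors can form, were examined through 9 markers, and 0 of the 9 passed in null P3 over wild type P3, with 1 at an unadjusted p under 0.05. Oscar, Dcstamp, Ocstamp and Atp6v0d2 were at 2.23 on all arrays. Ctsk, the bone matrix protease that fibroblasts can also express, rose by 0.74 in wild type P5 over wild type P3 (limma adjusted p = 0.0157) and fell by 0.61 in null P3 over wild type P5 (limma adjusted p = 0.0362). The summed signal of the 9 genes was 254 to 365 in null P3, against 319 to 352 in wild type P5 and 244 to 267 in wild type P3. The highest sum, 365, was that of null P3 replicate 1, where Mmp9 read 6.61, against no more than 4.64 on any other array. Of 6 measured adipocyte markers 0 passed in null P3 over wild type P3, with 2 at an unadjusted p under 0.05, and in wild type P5 over wild type P3 Fabp4 rose by 1.07 (limma adjusted p = 0.0258) and Lpl fell by 0.93 (limma adjusted p = 0.00358).

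**Figure D4:**
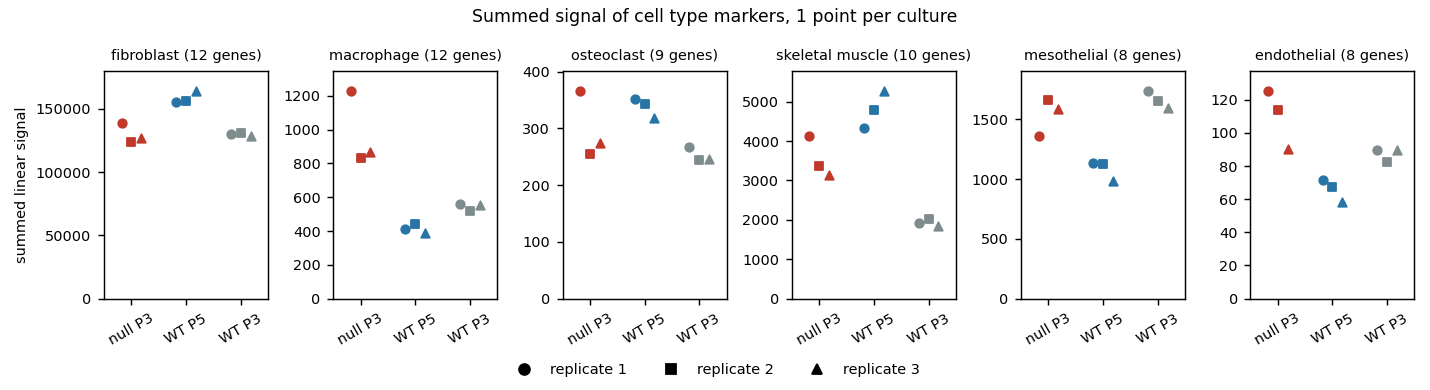
Summed linear signal of the markers of 6 cell types (y axes, from 0) in null P3, wild type P5 and wild type P3, with a point per culture and its shape giving the replicate. The macrophage sum was 832 to 1227 in null P3, above all wild type cultures, and the muscle sum was highest in wild type P5, where it is mostly Acta1 and where the mean log2 signal of the list was lowest.

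The genes whose pattern over the 9 arrays was most like that of each changed gene were taken from 2122 genes with a range of at least 1, as a description only, since 9 arrays in 3 groups give any gene that follows the groups a high correlation. For Prg4 these were Atpsckmt (Pearson r 0.980), Adamts3 (0.975) and Atp10d (0.974). Adamts3, which encodes a procollagen protease, read 4.70, 4.74 and 4.99 in null P3, against 2.97, 2.90 and 2.88 in wild type P5 and 2.97, 2.90 and 2.90 in wild type P3. For Comp they were Hey1 (0.990), a transcriptional repressor of the Notch pathway, Cyp4v3 (0.988) and Epdr1 (0.985). Hey1 read 4.14, 4.68 and 4.40 in wild type P5 and 2.75 on all 6 other arrays. For Acan they were Zfp428 (0.971), Nmral1 (0.965) and Nxt1 (0.964), and Zfp428 read 6.67, 6.93 and 6.73 in wild type P5, against 7.47, 7.22 and 7.72 in wild type P3 and 7.61, 7.24 and 7.17 in null P3. The probe-sets of Nmral1 and Cyp4v3 are of a kind that can match more than 1 transcript.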

How the data were processed

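RNA of 9 primary MEF cultures was hybridised to Affymetrix MOE430_2.0 arrays, 1 array per culture and 3 per group. The authors deposited log2 signals made with GCRMA, which corrects background from probe sequence, applies quantile normalization and gives 1 value per probe-set. Versions of GCRMA and of limma, which the submitters' notes also name, were not stated. The log2 values entered every test unchanged, and a low signal then compresses a difference.

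Of 45101 probe-sets, 34958 had 1 symbol, 932 several and 9211 were not named here. Names came from the platform annotation, of which 34754 matched RefSeq by gene number. A gene is its probe-set of highest mean signal. With R 4.3.3 and limma 3.58.1, 1 mean per group was fitted over the 9 arrays with the empirical Bayes step, and p-values were adjusted over all probe-sets by the Benjamini-Hochberg method (threshold 0.05). The procedure was tested on simulated data. The genes, lists and naming rules were chosen with earlier results of these data known. Up to 6 other skeletal genes and 2 markers per list were named per comparison by smallest p, and for each changed gene the 3 most correlated genes. Some further genes are named beside a list or a sum. Precision is limited by the number of arrays. Alternatives changed the normalization, filter, prior, selection, samples and replicate block.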

Additional observations from a re-analysis of the deposited data

How the results depend on the processing

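Replicate numbers did not pair the samples, as same-numbered arrays deviated from their group means with correlations of -0.491 to 0.395, and the replicate block left 0 of the 7 measured genes in null P3 over wild type P3 (Prg4, limma adjusted p = 0.0891), 1 in wild type P5 over wild type P3 (Acan lost, limma adjusted p = 0.139), and 7 and 3 of the other skeletal genes in wild type P5 over wild type P3 and in null P3 over wild type P5. The calls of Comp, and of Prg4 over wild type P5, were kept in all 16 alternatives, with limma adjusted p no higher than 0.0264, and the call of Prg4 over wild type P3 ranged between 0.000815 and 0.0891. A robust prior that varies with the signal left 0 measured genes in null P3 over wild type P3 and 1 in wild type P5 over wild type P3, and 3 and 4 other skeletal genes in wild type P5 over wild type P3 and null P3 over wild type P5. The study's selection by the F test left 1 measured gene in wild type P5 over wild type P3, and 1 other skeletal gene there and 1 in null P3 over wild type P5. Restricting the test to probe-sets above 4 on 3 arrays gave 6 other skeletal genes in null P3 over wild type P3 and 15 in null P3 over wild type P5, with fewer genes tested, and gave no value for Alpl, Chad and Sp7. Median centring gave 1 and the mean of all probe-sets 2 other skeletal genes in null P3 over wild type P3, and fitting only the 6 arrays compared gave 4 in null P3 over wild type P5. Leaving out 1 array gave 1 to 2 measured genes in wild type P5 over wild type P3, and 0 to 2, 4 to 15 and 3 to 7 other skeletal genes in null P3 over wild type P3, wild type P5 over wild type P3 and null P3 over wild type P5. The sign turned for Sox9 in wild type P5 over wild type P3 with the mean of its 3 probe-sets (0.19), and for Comp in null P3 over wild type P3 when 1 array was left out, with values between -0.18 and 0.035 (0.01 without null P3 replicate 2, 0.035 without wild type P3 replicate 1 or 2), none of them a called difference. Where the construction of an alternative does not show it, the cause was not tested. Signals near 2.23 limit what Alpl, Sp7, Chad, Acan and Comp can show of a decrease.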

Other observations

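Null P3 replicate 1 was the highest array by more than 0.5 for 5 of the 62 other skeletal genes (8.06%), beside 0.918% of all genes, and these 5 were named after their values were seen. Ibsp, which encodes the bone sialoprotein of mineralised tissue, read 4.07 there and no more than 2.81 on any other array, and the cartilage collagen gene Col9a1 read 4.95 and no more than 2.30. Pth1r, the receptor for parathyroid hormone and its related protein, read 6.18 beside a next highest value of 5.41. Thbs4, a thrombospondin of tendon, read 3.56 beside 2.84, and Itgb3 read 8.91 beside 8.29. Each other array stood highest in this way for 0 or 1 of the 62 genes. The same culture had the highest macrophage, osteoclast and endothelial marker sums of the 9 arrays, at 1227, 365 and 125. It also had the highest mean log2 signal of the skeletal muscle list, at 6.00, and the lowest adipocyte sum, at 801. Its Alpl value was the highest and its Acan value the second highest of the 9 arrays, at 2.43 and 4.94. Among the osteoclast genes, Mmp9 read 6.61 there, while Acp5 was at its lowest value of the 9 arrays, 2.84.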
